A study of Mus musculus with 12 samples.

Results

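The effect of cediranib alone on gene expression was examined in SVR tumors by comparing 3 cediranib treated tumors to 3 control tumors. These were 6 of the 12 tumors profiled by RNA sequencing, and every tumor labelled with either treatment was included. All 12897 of 54232 genes that passed a filter on low counts were compared. SVR is a line of mouse endothelial cells transformed with activated Ras, and it was grown as xenografts in athymic nude mice of 8 to 12 weeks of age. The strain is labelled C57BL/6. Dosing by gavage started once tumors had established for 3 to 7 days and was repeated every day. Control mice received vehicle only (cremaphor, PEG 400 and tween), and treated mice received cediranib at 3 mg/kg. The other 6 tumors received trametinib at 1 mg/kg, alone or with cediranib, and enter here through a shared estimate of the spread and through 1 comparison set beside the main one. The labels give treatment up to ulceration or a size limit, so time on treatment may differ between tumors. SVR is a single line, and the host's skin, muscle, vessels and blood cells are mouse cells as well, so alignment to a mouse genome does not separate them from the tumor. Nothing in the labels says whether tumors of a group came from different mice. The paper's methods describe cells injected into the flank of each mouse. P-values measure the spread between these samples only.

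Vascular endothelial growth factor (VEGF) ligands bind receptor tyrosine kinases on endothelial cells. Vegfa signals mainly through Kdr (VEGFR2), Flt1 (VEGFR1) binds Vegfa, Vegfb and Pgf, and Flt4 (VEGFR3) binds Vegfc and Vegfd. Nrp1 and Nrp2 are co-receptors. Cediranib blocks the kinase activity of the VEGF receptors and, less strongly, of Kit and the PDGF receptors. It acts on the proteins, so their transcripts are not a measure of target inhibition. In blood vessels, VEGF signaling is known to drive survival, sprouting and the tip cell genes Dll4, Apln, Esm1 and Angpt2.

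The 6 libraries held 10041892 to 11571487 counts, 99.8% of them on the genes tested, and 3 counts, the limit that a count of 0 allows, equalled 0.255 to 0.304 CPM, the read count scaled to a common library size with TMM factors. This limit and the counts cover counting error only. Exome probes captured the RNA before sequencing, so a gene's CPM depends on its probes and length, and levels are compared between tumors and not between genes. Values per tumor are given below for control replicates 1, 2 and 3 and then for cediranib replicates 1, 2 and 3. Endothelial markers were present in all 6 tumors. Cdh5, the adhesion molecule of endothelial junctions, had 45.3, 55.2 and 120 CPM in control and 52.4, 79.6 and 26.0 CPM in cediranib treated tumors, and Cd34 had between 28.1 and 38.3 CPM in all 6. Erg, an endothelial transcription factor, varied more, from 1.53 to 30.0 CPM, and Emcn, Icam2 and Clec14a had too few counts to be tested. The label of an endothelial tumor was thus met by some defining markers, while others were near 0.

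Each tumor also carried its own signal of other tissues, as shown in the plot of gene lists below. The 11 tested keratins of the epidermis summed to 782, 26.0 and 17.1 CPM in control and to 5256, 21.2 and 2718 CPM in cediranib treated tumors. Cediranib replicates 1 and 3 were therefore high, control replicate 1 was intermediate, and the remaining tumors, cediranib replicate 2 among them, were low. Hair follicle genes were high only in cediranib replicate 3, with a sum of 1027 CPM against 78.7 to 156 CPM in the other 5 tumors. Skeletal muscle genes summed to 22133 CPM in control replicate 2 and to 34.2 to 657 CPM elsewhere. Fibroblast genes reached 21664 CPM and hemoglobin and other erythroid genes 1791 CPM in control replicate 3, where the other tumors had at most 7929 and 570 CPM. Adipocyte genes summed to 57.0 CPM in cediranib replicate 2 and to 9.19 to 18.4 CPM in the others. In whole tumors, fewer cells of a type and less RNA per cell cannot be told apart.

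**Figure D1:**
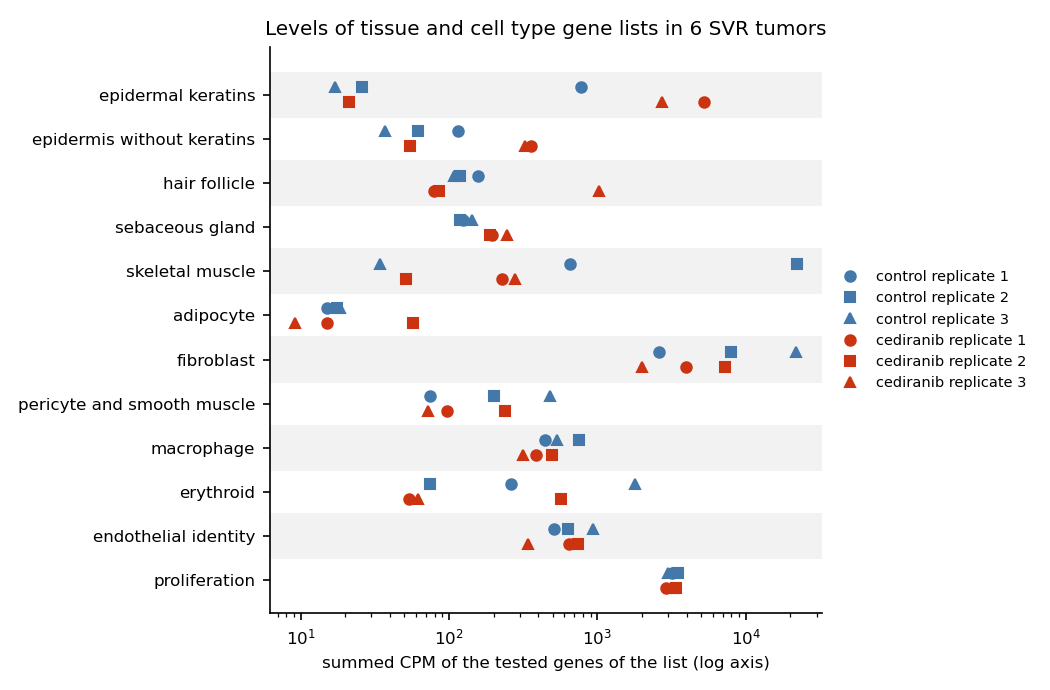
Summed CPM (log axis) of the tested genes of 12 tissue and cell type lists, one symbol per tumor (blue, control; red, cediranib; shapes, replicates 1 to 3). Epidermal keratins reached 5256 and 2718 CPM in cediranib replicates 1 and 3 but 21.2 CPM in replicate 2, skeletal muscle reached 22133 CPM in control replicate 2, and proliferation genes stayed close together in all 6 tumors.

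Over all genes, edgeR's quasi-likelihood test called 0 genes (0%) at an FDR of 0.05 with a log2 fold change of 1.5 or more in either direction, and the smallest FDR was 0.999 (Benjamini-Hochberg). At an unadjusted p under 0.05, 330 genes (2.56% of those tested) were higher in cediranib treated tumors and 227 (1.76%) were lower, 557 or 4.32% in all. In 278 of these 557 genes the values of the 3 cediranib treated and 3 control tumors overlapped. The other 279 genes were shifted in every tumor, with 176 (1.36%) above and 103 (0.799%) below all 3 controls. Without regard to p, all 3 cediranib treated tumors lay above all 3 controls in 556 genes (4.31%) and below them in 445 (3.45%). Of the 20 ways to split the tumors 3 against 3, 1 places all treated tumors on top and 1 at the bottom. Neither share exceeded 1 in 20. The counts of genes called and of genes at a p under 0.05 rested on single libraries. Without cediranib replicate 2, 7 genes were called (Celsr2, Elovl7, Fgfr2, Gjb2, Sfn, Smpd3 and Sprr1b, all higher) and 1040 had a p under 0.05, and without control replicate 1 these numbers were 0 and 1035. Genes higher at this p numbered 523 and 529 in these fits, of 13368 and 13394 tested, and genes lower numbered 517 and 506. In the other fits that leave out 1 library 228 to 267 genes were higher and 151 to 208 lower, of 13350 to 13368. These numbers are the background for the list counts of such fits below.

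**Figure D2:**
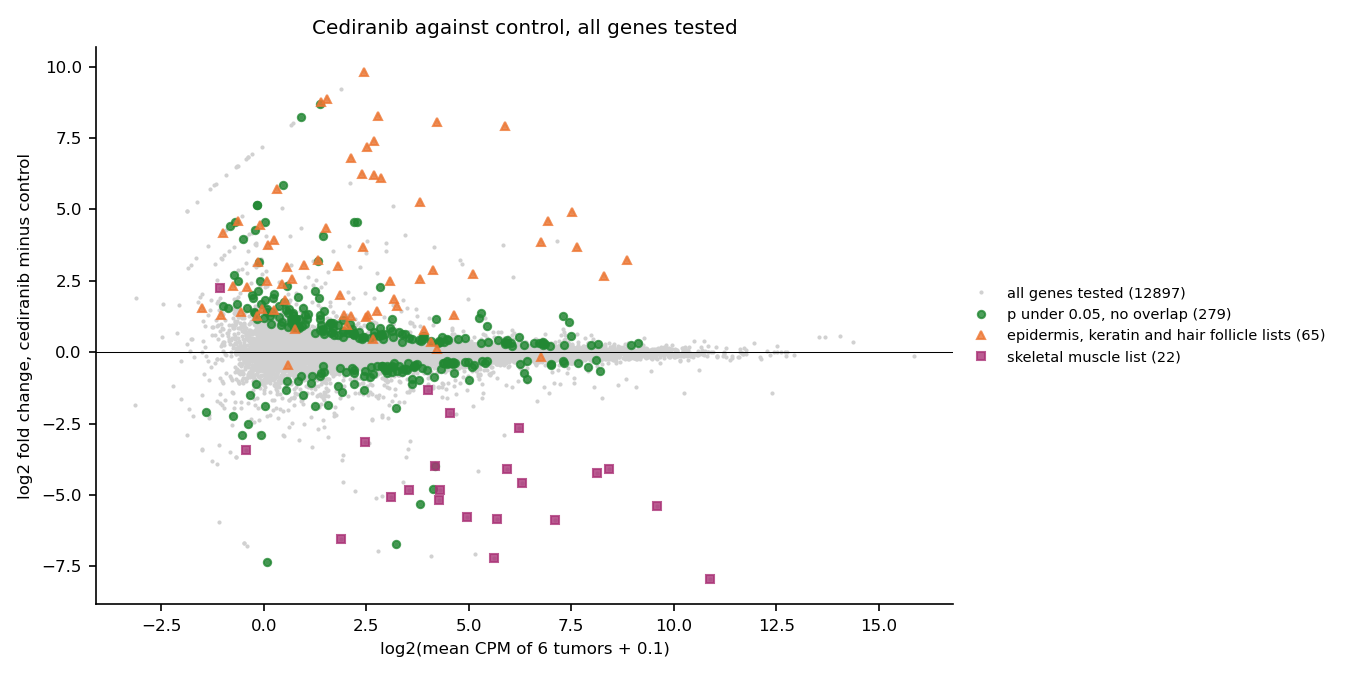
Log2 fold change of cediranib against control (vertical axis) by mean level in the 6 tumors (horizontal axis, log2 of CPM with 0.1 added) for the 12897 genes tested. Genes of the epidermis, keratin and hair follicle lists lie mostly far above 0 and those of the skeletal muscle list mostly far below it, while the 279 genes with a p under 0.05 and no overlap between the groups (green) mostly have smaller fold changes.

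Genes of the epidermis, the barrier layer of the skin, were high in some treated tumors only, and none of the tested list members separated the groups. Of 40 listed genes without keratins 30 were tested, and 30 had a higher mean fold change in cediranib treated tumors, with a median of 2.45 on the log2 scale against -0.003 for all genes tested. At an unadjusted p under 0.05 there were 16, against 2.56% of all genes, but in 0 of the 30 did the groups fail to overlap. In 29 of the 30 genes cediranib replicates 1 and 3 lay above all controls and replicate 2 did not, a pattern that 7.92% of all genes had. Leaving out 1 library gave 6 to 27 list members at this p, with 6 without cediranib replicate 1, 25 without control replicate 1 and 27 without cediranib replicate 2. Of all genes, 244, 529 and 523 were higher at this p in these 3 fits. With the 6 cediranib and control libraries alone the list median was 1.82. Dsp, the desmosome plaque protein desmoplakin, had 25.0, 0.608 and 0.707 CPM in control and 83.7, 0.473 and 95.3 CPM in cediranib treated tumors. Pkp1, another desmosome component, had 11.6, 0 and 0.707 CPM and then 52.2, 0 and 40.6 CPM. For both genes cediranib replicate 2 was as low as the lowest controls, and the fold changes were 2.74 (standard error 1.28) and 2.87 (1.42). The exception was Ivl, a precursor of the cornified envelope. It had 7.15, 33.9 and 12.6 CPM in control and 11.6, 33.0 and 13.6 CPM with cediranib, so that replicate 2 of both groups was highest.

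All 11 tested epidermal keratins followed the same pattern as Dsp, with a median fold change of 3.22 and 5 higher at a p under 0.05, against 2.56% of all genes. Without control replicate 1 this number was 10 and the median 7.96, and without cediranib replicate 1 they were 2 and 2.19. Genes higher at this p in these fits numbered 529 and 244 over all genes. Krt14, the keratin of basal keratinocytes, had 266, 1.72 and 1.01 CPM in control and 1694, 2.36 and 821 CPM in cediranib treated tumors. Krt17, found in hair follicles and in activated epidermis, had 34.0, 0.507 and 0.404 CPM and then 702, 0.662 and 363 CPM. Cediranib replicate 2 thus lay with control replicates 2 and 3 for both genes. Of the genes called without that tumor, Sfn (stratifin, an epithelial 14-3-3 protein) had 3.83, 2.13 and 1.41 CPM in control and 22.9, 2.65 and 16.9 CPM with cediranib. Gjb2, a connexin of keratinocyte gap junctions, had 0.0852, 0 and 0 CPM and then 4.40, 0 and 2.39 CPM. Both overlapped through replicate 2, as did Elovl7 and Sprr1b. Krt79, a keratin of the sebaceous duct, had 13.3, 2.03 and 0.202 CPM in control and 52.1, 0 and 97.7 CPM with cediranib.

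Hair follicle genes were carried by 1 tumor. Of 32 listed genes 24 were tested, and 23 of them were highest in cediranib replicate 3, against 18.1% of all genes. At a p under 0.05 there were 14 higher, against 2.56% of all genes, with a median fold change of 5.22. With the 3 genes without any count in 1 group placed at the bound given by 3 counts, the median was 5.05. The filter on low counts used all 12 libraries, and hair follicle genes summed to 354 to 724 CPM in the 3 combination treated tumors. Genes high in 1 of the 6 tumors compared could thus be tested through those tumors. With the 6 libraries alone the median was 0.45. Without cediranib replicate 3 there were 0 higher at a p under 0.05 by edgeR and the median was -0.18. Krt71, a keratin of the inner root sheath, had 0.0852, 0.608 and 0.808 CPM in control and 0.0999, 0.189 and 355 CPM with cediranib. Krt25, of the same sheath, had 112 CPM in cediranib replicate 3 and at most 0.304 CPM in the others. Genes of keratin-associated proteins, which embed the keratins of the hair shaft, summed to 80.0 CPM there, to 0 in cediranib replicates 1 and 2, and to 0.101 to 1.41 CPM in control.

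Skeletal muscle genes gave the reverse picture, a low fold change set by 1 control tumor. Of 22 tested genes 21 had a negative fold change and 14 had a p under 0.05 (1.76% of all genes were lower at this p), with a median of -4.70. In 20 of the 22 control replicate 2 was highest, against 15.5% of all genes, and without it the number at a p under 0.05 was 0 by edgeR and the median -0.58. Without 1 of the cediranib treated tumors the number was 3 to 4, and without control replicate 1 or 3 it was 19. Myh4, a fast myosin heavy chain, had 8.60, 11297 and 2.02 CPM in control and 7.19, 2.36 and 36.7 CPM in cediranib treated tumors. Acta1, skeletal actin, had 173, 4337 and 2.83 CPM and then 41.5, 7.00 and 60.7 CPM, so control replicate 3 lay below all 3 treated tumors for both genes. Only Casq1, the calcium store protein of muscle, was lower in every cediranib treated tumor, with 3.49, 93.6 and 4.14 CPM in control and 3.30, 1.61 and 1.44 CPM with cediranib. Scn4a, the sodium channel of skeletal muscle and not a list member, had 0.766, 52.4 and 1.82 CPM and then 0.200, 0.0946 and 0.191 CPM.

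Stromal and blood lists showed smaller shifts that also followed single tumors. All 13 tested fibroblast genes had a negative fold change, 0 of them at a p under 0.05 by edgeR's quasi-likelihood test and with a median of -1.15. Without control replicate 3 the median was -0.14, while without control replicate 1 it was -1.39 with 9 of 14 genes lower at a p under 0.05, and without cediranib replicate 2 it was -1.44 with 5 of 14. Col1a1, the main collagen chain of fibroblasts, had 1501, 5749 and 16127 CPM in control and 2465, 5144 and 1170 CPM with cediranib, a range within which the groups overlapped widely. The 5 tested erythroid genes had a median of -1.61, and of 0.46 without control replicate 3, the tumor in which all 5 were highest, and of -3.92 without cediranib replicate 2, when 4 had a p under 0.05. Of 7 adipocyte genes 6 were highest in cediranib replicate 2, and their median changed from 1.24 to -0.59 without it. Pericyte and smooth muscle genes had 7 of 9 negative fold changes, 0 at a p under 0.05 in edgeR (2 without control replicate 1), and Rgs5, a pericyte gene, had 2.64, 13.4 and 12.7 CPM in control and 5.40, 6.90 and 2.87 CPM with cediranib.

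Macrophage genes had negative fold changes in 13 of 15 tests, 2 at a p under 0.05 (against 1.76% of all genes), with a median fold change of -0.34. Cediranib replicate 3 was lowest in 12 of the 15, against 18.1% of all genes, and without it the median was -0.11 and 0 passed this p in edgeR. Without cediranib replicate 2 all 15 were negative, with a median of -0.70 and 3 at this p, and without control replicate 1 the median was -0.55, also with 3. Mrc1, the mannose receptor of tissue macrophages, had 291, 474 and 311 CPM in control and 227, 254 and 206 CPM in cediranib treated tumors. All 3 treated tumors were below all 3 controls, and the log2 fold change was -0.65 (standard error 0.25, unadjusted p = 0.0244 and FDR 0.999 from edgeR). Laptm5, a lysosomal protein of blood cells, overlapped, with 30.5, 40.5 and 34.5 CPM in control and 22.5, 32.7 and 17.8 CPM with cediranib. Cpa3, a mast cell protease, was higher in every treated tumor at low levels, with 0.766, 0.101 and 0.303 CPM and then 0.999, 1.23 and 1.72 CPM. Of the 14 T and NK cell genes only Lck was tested, at 3.06 to 5.30 CPM, and Cd3d, Cd3g, Gzma and Gzmb had 0 counts in all 6 tumors.

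The VEGF receptors, the targets of cediranib, had lower mean levels with wide overlap. Kdr had 4.68, 8.62 and 20.0 CPM in control and 5.70, 11.7 and 3.64 CPM in cediranib treated tumors. Flt4 had 3.92, 5.27 and 14.3 CPM and then 1.90, 6.34 and 2.01 CPM. For both receptors control replicate 3 was highest and cediranib replicate 2 was above control replicates 1 and 2. Flt1 was the exception, with 18.1, 18.5 and 22.2 CPM in control and 11.0, 17.5 and 13.9 CPM with cediranib. All 3 treated tumors were below all 3 controls, but the log2 fold change of -0.47 (standard error 0.33) had a p of 0.178 in edgeR, so it was not told apart from the spread. The co-receptors had log2 fold changes of -0.37 for Nrp1 (standard error 0.39) and -0.03 for Nrp2 (0.16). All 5 fold changes were negative, and with the epidermal score described below in the model the median moved from -0.47 to 0.08. With a like score of fibroblast or of macrophage genes instead it was -0.12 or -0.11. Without cediranib replicate 2 the median was -0.90 and 3 of the 5 were lower at a p under 0.05.

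**Figure D3:**
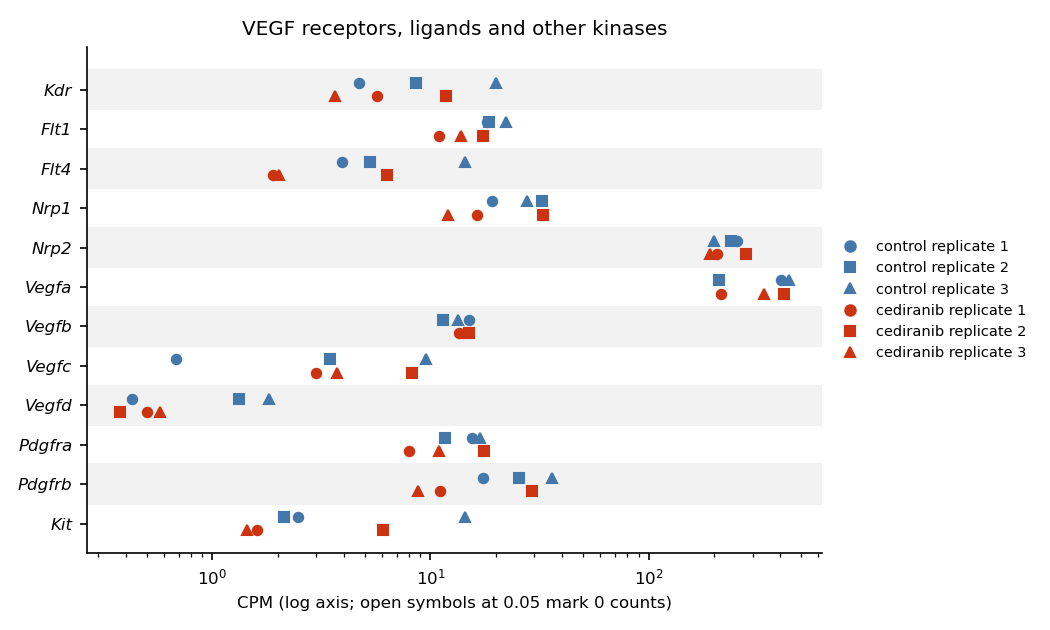
CPM (log axis) of VEGF receptors, co-receptors and ligands and of the other kinases that cediranib inhibits, one symbol per tumor. In Kdr, Flt4, Pdgfrb and Kit control replicate 3 (blue triangle) is highest and cediranib replicate 3 (red triangle) is lowest or near lowest, and Flt1 is the receptor in which all red symbols lie below all blue ones.

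Among the ligands, Vegfa had 407, 210 and 439 CPM in control and 215, 417 and 337 CPM with cediranib, and the log2 fold change was -0.13 (standard error 0.31). Vegfb stayed between 11.5 and 15.1 CPM in all 6 tumors, and Vegfc, the ligand of Flt4, ranged from 0.681 to 9.5 CPM within control alone. Vegfd had 0.426, 1.32 and 1.82 CPM in control and 0.50, 0.378 and 0.574 CPM with cediranib. Its log2 fold change of -1.25 (standard error 0.51) had an unadjusted p of 0.0301 in edgeR (FDR 0.999), and control replicate 1 lay among the treated tumors. Pgf, with 17 counts over the controls and 14 over the treated tumors, was not tested. Of the other kinases, the log2 fold changes were -0.27 for Pdgfra (standard error 0.27), -0.68 for Pdgfrb (0.43) and -1.05 for Kit (0.82). For Kit the controls alone ran from 2.13 to 14.3 CPM, and cediranib replicate 2 at 6.05 CPM was above 2 of the 3. Without cediranib replicate 2 all 3 kinases were lower at a p under 0.05, with a median of -1.40, and without control replicate 3 the median was -0.16 and 0 passed this p in edgeR.

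Among genes known to respond to VEGF or to mark sprouting vessels negative fold changes prevailed. Of 18 tested members 15 had a negative fold change, with a median of -0.30, and 2 had a p under 0.05 (against 1.76% of all genes lower), Igfbp3 and Mcam. The highest tumor was control replicate 3 in 10 of the 18, against 20.1% of all genes, and without it 11 of 18 were negative and the median was -0.13. Without control replicate 1 the median was -0.42, with 18 of 19 negative and 5 at this p, and without cediranib replicate 2 it was -0.60, also with 5 at this p. Dll4, the Notch ligand of tip cells, had 2.38, 4.66 and 15.7 CPM in control and 1.30, 6.62 and 1.63 CPM with cediranib. Apln, a peptide hormone of sprouting endothelium, had 4.26, 3.24 and 7.78 CPM and then 3.90, 4.63 and 4.11 CPM. In both genes cediranib replicate 2 exceeded control replicates 1 and 2. These 4 genes, like Cd34 and Erg above, were named after their values were seen. Nos3, the endothelial nitric oxide synthase, had 209, 151 and 301 CPM in control and 375, 227 and 218 CPM with cediranib. Esm1, a tip cell gene, had 13 and 2 counts over the groups and was not tested, as were Adm, Angpt2 and Hey2. Endothelial identity genes had negative fold changes in 19 of 21 tests, 2 at a p under 0.05 (against 1.76% of all genes), and 15 of the 21 were highest in control replicate 3. Without that tumor 11 fold changes were positive and 11 negative, and their median was -0.01. Cediranib replicate 3 was lowest in 12 of the 21, against 18.1% of all genes, and without it the median was -0.09. Without cediranib replicate 1 all 24 then tested were negative, and without cediranib replicate 2 the median was -0.60 with 5 at a p under 0.05.

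Growth and stress programs had medians near 0. The 20 tested genes of MAPK output, the transcripts that rise with ERK activity, split into 10 positive and 10 negative fold changes, with a median of -0.02 and 0 at a p under 0.05 by edgeR's quasi-likelihood test. Spry2, a feedback inhibitor of the pathway, had 218, 198 and 253 CPM in control and 162, 183 and 282 CPM with cediranib, and Spred1 differed by 0.01 on the log2 scale (standard error 0.14). Proliferation genes had a median of -0.01 over 33 tested, and Top2a, a topoisomerase of dividing cells, differed by 0.05 (standard error 0.13). The 1 proliferation gene at a p under 0.05 was Ube2c, a subunit of the mitotic ubiquitin machinery, with 73.2, 184 and 77.1 CPM in control and 54.6, 67.0 and 54.2 CPM with cediranib. Ube2c overlaps the muscle troponin gene Tnnc2 on the opposite strand, and its highest value was in the tumor with high muscle genes. Of 30 tested hypoxia and glycolysis genes 0 had a p under 0.05 by edgeR, with a median of -0.05, and 3 were lower without cediranib replicate 2. Without control replicate 2 the median was -0.19 with 26 of 30 negative and 2 at this p. Without control replicate 3 it was 0.10 with 24 of 30 positive. Medians were 0.00 for 15 apoptosis genes and 0.22 for 14 interferon-stimulated genes, also with 0 at this p. The interferon median ran from -0.08 without cediranib replicate 2 to 0.60 without cediranib replicate 3. Standard errors of 0.10 to 0.15 for Mcl1, Apaf1, Mcm6, Gapdh and Eno1 show the precision reached for such genes.

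Because keratin levels differed so much between tumors, an epidermal score (mean log2 CPM of the 30 tested epidermis genes) was added to the edgeR model. The score was 0.85, -0.82 and -0.76 in control and 2.61, -0.84 and 2.53 in cediranib treated tumors. Its slope is estimated from tumors of the same group, and the score rests on the same libraries as the genes it adjusts. With it 343 genes (2.66%) had a p under 0.05, 117 of them among the 557 and in the same direction, 0 were called, and the smallest FDR was 0.133. With a skeletal muscle score added as well there were 355 (2.75%), 104 of them shared, and 0 called. Of the 279 genes shifted in every tumor, 172 of the 176 higher and all 103 lower genes kept at least 0.5 of their log2 fold change with the epidermal score. The 4 that did not were Epha1, Slc25a1, Smpd3 and Sostdc1. At a p under 0.05 in that model, 73 of the 176 and 21 of the 103 remained. These genes were picked with cediranib replicate 2, a tumor of low score, also beyond all controls. Genes that follow the score were thus mostly left out beforehand, and the share kept does not test its part. Of the 176 higher genes 1, Scd1, was on a skin list, which is what the groups' overlap in the skin genes leaves.

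The genes with the smallest p among those higher in every tumor included Fgfr2, Celsr2 and Fcgbp. Fgfr2 (chromosome 7 from 130162451 to 133123350, minus strand) is a fibroblast growth factor receptor with an epithelial splice form, and its annotated span overlaps many genes on both strands. It had 2.47, 2.53 and 2.22 CPM in control and 15.2, 4.63 and 15.4 CPM in cediranib treated tumors. The treated tumors with high keratins were highest, and replicate 2 was also above every control. The part of the epidermal score in this difference was not tested beyond the fit that includes it. The log2 fold change was 2.28 (standard error 0.44, unadjusted p = 0.000223 in edgeR) and 1.39 (0.40) with the epidermal score. Celsr2, an adhesion receptor of planar cell polarity, had 0.766, 0.304 and 0.303 CPM and then 5.60, 1.23 and 6.32 CPM, and the fold change was 3.19 (standard error 0.62), or 1.91 with the score. Fcgbp, a mucus protein, had 1.02, 0 and 0 CPM and then 14.8, 1.70 and 10.7 CPM. The likelihood ratio test of edgeR called 14 genes and the Wald test of DESeq2 called 10, with 6 in common, and Celsr2, Fgfr2 and Sfn were the 3 that both called and that were called without cediranib replicate 2.

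Of 12 higher genes taken by p, Sprr2h belongs to the small proline-rich proteins that are crosslinked into the cornified envelope of the epidermis. It had 0, 0.507 and 0.606 CPM in control and 17.2, 1.51 and 7.18 CPM in cediranib treated tumors. Its neighbors Sprr2g and Sprr2i were at 0 in all 3 controls and had 12.4, 0.757 and 1.82 CPM and 10.2, 0.189 and 0.383 CPM with cediranib. Against 3 counts over the controls this is at least 51.1-fold higher for Sprr2g and 36.6-fold for Sprr2i, carried mostly by replicate 1. In replicate 2 Sprr2g and Sprr2i had 8 and 2 counts, and 2 counts lie under the limit of 3 that a count of 0 allows. Reads of these near-identical genes may be split between them, so their counts are uncertain. The 250 bases before the annotated start (RefSeq, build GRCm38.p6) are shown for 3 genes. Sprr2h (plus strand, chr3:92385435-92385684) and Sprr2i (plus strand, chr3:92407741-92407990) are neighboring genes with most of their counts in the treated tumors. Fgfr2 (minus strand, chr7:130266809-130267058) was higher in every treated tumor and lacks the motif TATAAA in the window shown. That window lies inside the Fgfr2 span given above, so the 2 annotations place its start differently. Capitals mark TATAAA on the gene's strand, whose first base lies 29 bases before the start in both Sprr2 windows.
Sprr2h: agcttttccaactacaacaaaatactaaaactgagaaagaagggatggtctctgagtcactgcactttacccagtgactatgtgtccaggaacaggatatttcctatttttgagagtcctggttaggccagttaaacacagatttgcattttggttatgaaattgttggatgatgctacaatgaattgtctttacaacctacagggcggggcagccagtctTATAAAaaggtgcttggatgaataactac
Sprr2i: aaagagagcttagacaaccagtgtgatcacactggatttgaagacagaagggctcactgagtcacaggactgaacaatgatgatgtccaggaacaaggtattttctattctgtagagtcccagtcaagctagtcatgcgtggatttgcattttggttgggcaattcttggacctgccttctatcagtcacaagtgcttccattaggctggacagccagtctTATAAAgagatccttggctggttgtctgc
Fgfr2: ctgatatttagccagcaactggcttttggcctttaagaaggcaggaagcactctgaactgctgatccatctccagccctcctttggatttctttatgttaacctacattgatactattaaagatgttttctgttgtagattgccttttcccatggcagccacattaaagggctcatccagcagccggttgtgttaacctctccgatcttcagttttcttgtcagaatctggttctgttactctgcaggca
TATAAA on the gene's strand was present in 2195 of 27025 mouse promoter windows of this length (8.12%, or 13.0% on either strand) and in 4.17% of the 8819 windows of genes tested. It was present in 9 of 20 hair follicle windows (45.0%) and 6 of 23 epidermis windows (26.1%), but in 5 of 104 windows of genes higher in every tumor (4.81%) and 3 of 69 of those lower in every tumor (4.35%). A match is a description of the sequence only.

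Several other genes higher in every tumor are known from epithelia though on none of the lists, and were chosen after their values were seen. Lamb3, a chain of the laminin that anchors the epidermis, had 0.341, 0.811 and 0.202 CPM in control and 2.40, 1.04 and 1.63 CPM with cediranib. Ocln, a tight junction protein, had 0.17, 0.507 and 0.202 CPM and then 1.30, 0.662 and 2.01 CPM. In each the lowest treated tumor, replicate 2, was just above the highest control. Rapgefl1, a signaling exchange factor, Smpd3, a sphingomyelinase, and Hephl1, a copper ferroxidase active in hair and skin, were also among the 12. Smpd3 had 0.255, 0.101 and 0.101 CPM and then 2.40, 0.284 and 1.82 CPM, and both control replicate 1 and cediranib replicate 2 had 3 counts.

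Scd1, the stearoyl-CoA desaturase that makes monounsaturated fatty acids, was highest in the treated tumor with the lowest keratins. It had 21.2, 20.5 and 23.5 CPM in control and 36.0, 95.8 and 39.1 CPM in cediranib treated tumors. The highest value was in replicate 2, the tumor with low keratins and high adipocyte genes, and the other 2 treated tumors were also above all controls. The log2 fold change was 1.39 (standard error 0.33, unadjusted p = 0.0011 in edgeR) and 1.76 with the epidermal score. Mtrf1, a mitochondrial translation release factor, had 0.766, 0.811 and 1.21 CPM and then 1.6, 3.22 and 3.44 CPM. Aldh1l1, an enzyme of folate metabolism, had 3.24, 2.74 and 2.42 CPM and then 6.99, 5.01 and 4.88 CPM. Control values were close together in both, and each treated tumor was above them. Grin1 and Phyhip, genes best known from neurons, were at or below 0.101 CPM in every control and at 0.378 to 2.11 CPM in the treated tumors.

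Plekhg1, a gene known from endothelial cells (chromosome 10 from 3740364 to 3967298, plus strand), had the smallest p of all genes shifted in every tumor. It had 7.49, 6.18 and 9.19 CPM in control and 3.20, 3.03 and 2.87 CPM in cediranib treated tumors. The treated tumors were close together, and each was well below the lowest control. The log2 fold change was -1.33 (standard error 0.25, unadjusted p = 0.000158 and FDR 0.999 from edgeR), and -1.32 with the epidermal score. Thbs3, a thrombospondin of the matrix, had 31.5, 47.2 and 49.2 CPM and then 22.7, 20.6 and 21.9 CPM. Vasp, an actin regulator at adhesions, had 72.3, 94.5 and 96.6 CPM and then 69.4, 67.3 and 59.3 CPM. In both the treated tumors lay below the lowest control, by little for Vasp. Sytl4, a Rab effector of granule release, had 5.20, 4.56 and 8.79 CPM and then 2.00, 3.5 and 3.06 CPM.

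Smaller shifts of well measured genes were seen in Snx2, a retromer component, and Rcbtb1. Snx2 had 248, 333 and 262 CPM in control and 177, 222 and 188 CPM with cediranib, a log2 fold change of -0.52 (standard error 0.14). Rcbtb1 had 16.5, 18.3 and 16.3 CPM and then 9.99, 11.5 and 13.3 CPM. Ntn4, a netrin of vascular basement membranes, had 5.45, 4.66 and 4.34 CPM and then 2.50, 3.40 and 3.06 CPM. In all of these the highest treated tumor was close to the lowest control. H19, an imprinted noncoding RNA, had 1.96, 63.9 and 35.4 CPM and then 0.30, 1.8 and 1.53 CPM, and Gm27786, which overlaps H19 on the opposite strand, had 1.70, 50.4 and 29.8 CPM and then 0.30, 0.851 and 0.861 CPM. Control replicate 1 was near the treated tumors for both, so the low p came from control replicates 2 and 3. Fam131a and Scn2a, a neuronal sodium channel, completed the 12 lower genes with log2 fold changes of -1.09 and -1.38.

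**Figure D4:**
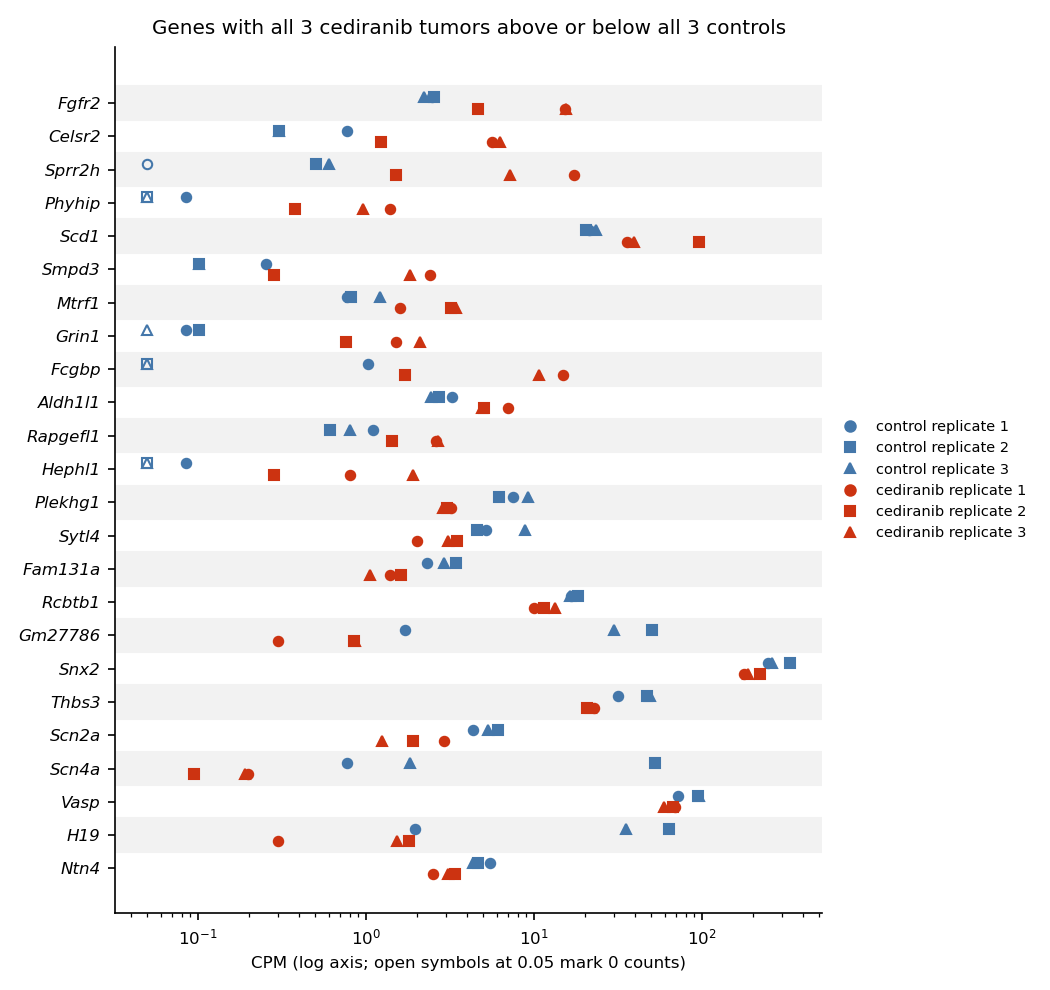
CPM (log axis; open symbols, 0 counts) of the 12 genes higher and the 12 genes lower in every cediranib treated tumor with the smallest p, one symbol per tumor. Fgfr2, Celsr2 and Fcgbp are highest in cediranib replicates 1 and 3, Scd1 is highest in replicate 2 at 95.8 CPM, and the 3 treated tumors lie close together for Plekhg1 and Thbs3.

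The same drug was also given with trametinib, and the comparison of combination treated to trametinib treated tumors shares no library with the one above. In those tumors the epidermal score ran from 2.58 to 3.21 with the combination and from -1.30 to -1.15 with trametinib, so skin genes differ there too. Of the 176 genes higher in every cediranib treated tumor, 106 (60.2%) were higher in the combination, where 48.8% of all genes were, and 42 (23.9%) with a p under 0.05, against 9.21%. Of the 103 lower genes, 65 (63.1%) were lower, against 51.2% of all genes, and 16 (15.5%) with a p under 0.05, against 8.69%. Fgfr2, Celsr2, Fcgbp and Sprr2h had log2 fold changes of 2.45, 6.06, 5.31 and 6.91 there, beside 2.28, 3.19, 4.57 and 4.55 for cediranib alone. Scd1, Mtrf1 and Aldh1l1 had -0.18, -0.36 and -1.07, beside 1.39, 1.56 and 1.00. Plekhg1 had -0.41 (standard error 0.25) beside -1.33, and Thbs3 and Vasp had 0.31 and 0.29, beside -0.97 and -0.42. The interaction contrast tests the difference between both effects of cediranib. It called 0 genes (0%) in edgeR, with a smallest FDR of 0.185 and 909 genes at an unadjusted p under 0.05, and the unadjusted p was 7.41e-05 for Aldh1l1, 0.000318 for Sytl4 and 0.000605 for Scn2a.

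**Figure D5:**
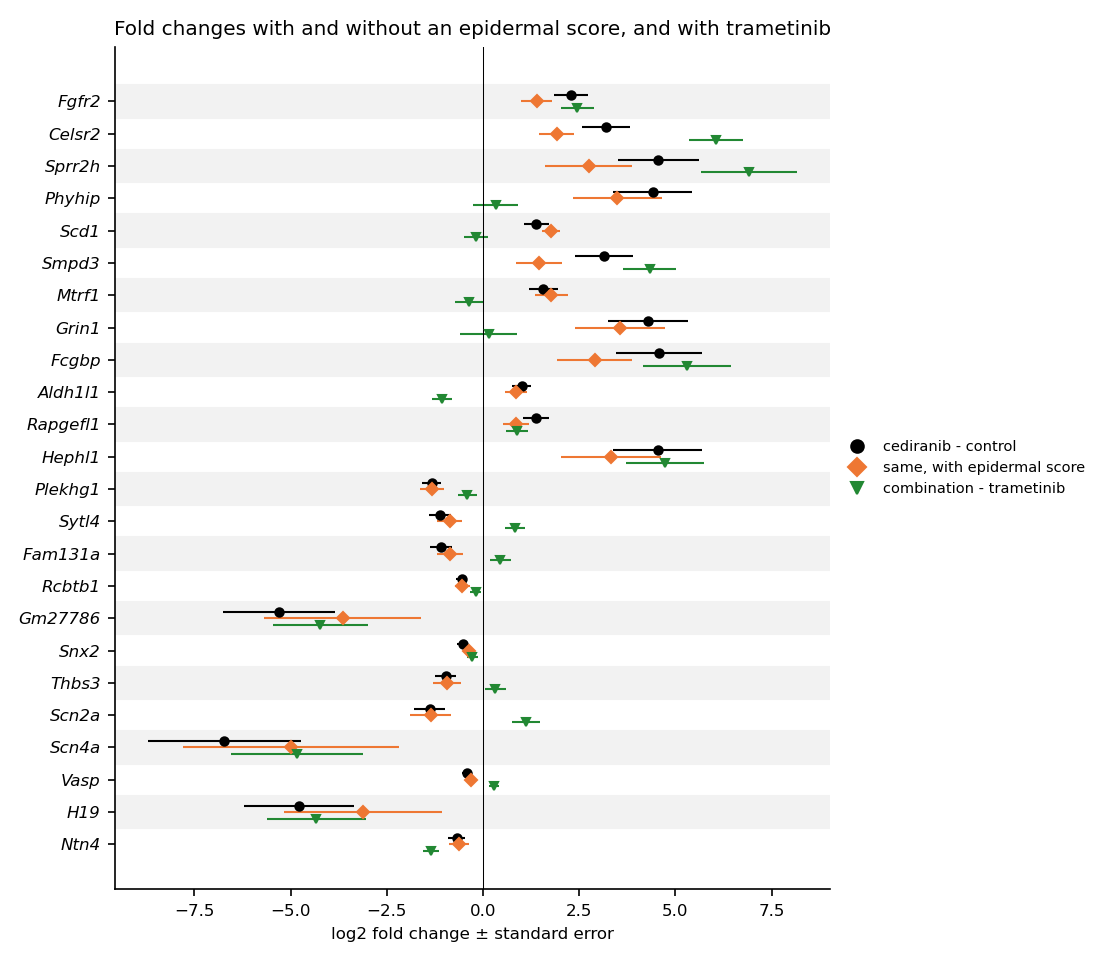
Log2 fold changes with standard errors of the same 24 genes for cediranib against control (black), with the epidermal score in the model (orange), and for combination against trametinib (green). The orange values lie closer to 0 for Fgfr2, Celsr2 and Smpd3 and not for Scd1 and Plekhg1, and the green values change sign for Aldh1l1, Sytl4, Scn2a and Thbs3 among others.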

How the data were processed

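Libraries were made from RNA of whole SVR tumors by exome capture. The authors aligned the reads to the mouse genome (GRCm38) with STAR (2.7.1a) after bcl2fastq (1.8.4) and deposited raw counts per gene from featureCounts (1.6.0), per the labels and the methods. The strand setting, the handling of reads that match several genes and the annotation release were not stated in what was read here. Without strand, overlapping genes cannot be told apart. Of 54232 gene IDs, 54165 were found in GENCODE M21, which gave positions and overlaps. Promoter windows came from RefSeq.

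Counts were tested in R (4.3.3) with the quasi-likelihood test of edgeR (4.0.16), with TMM factors, filterByExpr (minimum count 10, minimum total 15) and 1 fit of all 12 libraries (4 groups of 3). P-values were two-sided and adjusted by Benjamini-Hochberg over all 12897 genes tested. Genes were called at an FDR of 0.05 with a log2 fold change of at least 1.5 in size. Log2 CPM values, used for the overlap counts and the scores, carry a prior count of 2, and the fitted fold changes do not. Groups came from the labels. Scores were added to the model as covariates. Alternatives were the likelihood ratio test, DESeq2 (1.42.0), limma voom (3.58.1), other size factors and filters, the 6 libraries alone, 5 score models, a replicate block and leaving out each library. The procedure was tested on simulated data.

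The comparison, its gene lists and the tests were chosen with earlier results of these data known, and some lists were drawn up in an earlier analysis of these libraries. Genes were named by rule: all VEGF receptors, ligands and other target kinases, up to 4 tested members per other list by mean CPM, list members shifted in every tumor, the 12 higher and the 12 lower genes with the smallest p among those whose groups do not overlap, Fgfr2, Fcgbp and Celsr2, and genes called in leave-one-out or score models where these were 10 or fewer. Others were named after their values were seen.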

Additional observations from a re-analysis of the deposited data

How the results depend on the processing

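The count of 0 called genes stood with other size factors, the stricter filter, limma voom, the 6 libraries alone and every score model. Without a filter, over 29102 genes, 324 genes were called, 1511 had a p under 0.05 and the interaction called 373. The likelihood ratio test called 14 genes (interaction 28) and DESeq2 called 10 (interaction 37). With the epidermal score 343 genes had a p under 0.05 and 110 of those did not overlap, with both scores 355 and 91, and with the fibroblast or the macrophage score 169 or 172 did not overlap. Leaving out 1 library gave 0 to 7 called genes, 395 to 1040 at a p under 0.05 (1035 without control replicate 1, 1040 without cediranib replicate 2), 286 to 919 of those without overlap (787 and 919 in these same fits) and 0 to 1 for the interaction (1 without cediranib replicate 3). The cause was not tested, except that fewer libraries leave fewer values that can overlap.

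Replicate numbers are shared between the groups, but 3 of 18 same-numbered pairs had correlated deviations over 0.1 (range -0.219 to 0.356), and in 9 of 36 comparisons a tumor correlated best with its own number. The numbers were thus not taken as pairs. With the replicate block 0 genes were called by edgeR, 530 had a p under 0.05 and 253 of those did not overlap.

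Some log2 fold changes changed sign. With limma voom these were Ivl (-0.094), Top2a (-0.021). With the epidermal score they were Apaf1 (0.017), Cd34 (0.049), Cdh5 (0.068), Dsp (-1.95), Eno1 (0.046), Gapdh (0.034), Kdr (0.11), Krt14 (-1.77), Krt17 (-0.59), Krt79 (-2.12), Nrp1 (0.17), Nrp2 (0.083), Pkp1 (-2.80), Spred1 (-0.12), Sprr1b (-0.15), Vegfa (0.0092). With the skeletal muscle score they were Spred1 (-0.010), Vegfc (-0.053), with the fibroblast score Apln (0.0080), Cdh5 (0.12), Col1a1 (0.094), Eno1 (0.011), Kdr (0.096), Spred1 (-0.043) and with the macrophage score Nrp2 (0.044), Spred1 (-0.094). With both the epidermal and the skeletal muscle score they were Apaf1 (0.0047), Dsp (-1.96), Kdr (0.043), Krt14 (-1.82), Krt17 (-0.42), Krt79 (-2.47), Myh4 (0.12), Nrp1 (0.29), Nrp2 (0.076), Pkp1 (-2.72), Spred1 (-0.15), Sprr1b (-0.057). Over the fits that leave out 1 library they ranged through 0 for Apaf1 (-0.17 to 0.0014), Apln (-0.51 to 0.16), Cd34 (-0.11 to 0.087), Cdh5 (-0.91 to 0.067), Eno1 (-0.14 to 0.074), Gapdh (-0.23 to 0.020), Ivl (-0.50 to 0.97), Kdr (-1.25 to 0.082), Kit (-2.04 to 0.40), Krt25 (-1.21 to 9.32), Krt71 (-1.65 to 8.49), Myh4 (-9.64 to 1.51), Nrp2 (-0.22 to 0.062), Spred1 (-0.051 to 0.14), Spry2 (-0.38 to 0.059), Top2a (-0.039 to 0.16), Vegfa (-0.39 to 0.097), Vegfc (-0.42 to 1.29). List counts and medians under the alternatives were added after seeing the data. The median of the epidermis list moved from 2.45 to -0.40 with the epidermal score. With this score that of endothelial identity genes moved from -0.40 to 0.03 and that of pericyte genes from -0.73 to 0.08. With the fibroblast score the latter 2 were 0.06 and 0.27, and with the macrophage score both were -0.15. The hair follicle median was 2.42 with the epidermal score, 2.14 with limma voom, 0.42 with the macrophage score and 0.45 with the 6 libraries alone. That of interferon-stimulated genes was -0.08 without cediranib replicate 2 and 0.60 without cediranib replicate 3.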

Other observations

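The genes of this section were named after their values were seen. Noncoding RNAs and pseudogenes made up 43 of the 176 genes higher in every cediranib treated tumor (24.4%) and 15 of the 103 lower in every tumor (14.6%), where they were 13.7% of all genes tested. Rn7sk, the small nuclear RNA that restrains transcription elongation, had 40.2, 32.7 and 16.5 CPM in control and 51.3, 70.7 and 48.7 CPM in cediranib treated tumors. Its log2 fold change was 0.93 (standard error 0.27), and -0.47 for combination against trametinib. mt-Rnr1, a ribosomal RNA of the mitochondrion, had 164, 116 and 153 CPM and then 194, 237 and 213 CPM, with fold changes of 0.57 and -0.56. Both thus changed sign between the settings. The mitochondrial coding gene mt-Nd6, which lies on the opposite strand of mt-Nd5, had 5.71, 7.80 and 4.24 CPM and then 12.4, 10.3 and 9.38 CPM. Snord16a, a small nucleolar RNA within Rpl4, had 75.4, 50.8 and 56.7 CPM and then 84.1, 83.9 and 98.5 CPM. The FDR of each was 0.999 in edgeR, and measures of RNA quality were not used here. The authors chose exome capture because RNA degradation was relatively common in these tumors. Whether it bears on these RNAs was not tested.

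Hoxb4, a homeobox transcription factor, was close to level within each group, with 27.7, 26.5 and 26.1 CPM in control and 18.8, 22.6 and 20.0 CPM with cediranib. Its log2 fold change was -0.39 (standard error 0.14), and 0.38 for combination against trametinib. Hoxa4 had 9.88, 8.82 and 10.0 CPM and then 7.99, 3.97 and 6.89 CPM, and its annotated span overlaps other genes of the cluster on both strands.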
